A study of Mus musculus with 6 samples.

Results

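Keratins, uroplakins and surface proteins of the mesothelial epicardium were followed in whole mouse hearts at E13.5, a stage at which the epicardium covers the heart. The 9 genes were Krt7, Krt8, Krt18, Krt19, Upk1b, Upk3b, Msln, Lrrn4 and Gpm6a, taken by name from the 46983 genes listed for each heart. They are known genes of mesothelium, and the set was selected on the fold changes between mutant and wild type in these same hearts, which were known when it was put together. The differences between genotypes in these genes are therefore given as a description, with no p for a single gene of the set. Where the fits over all genes made calls among the 9, their number is given beside the share or the number of all genes called, and nothing is read from them.

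The mutant hearts carried Tnnt2 Cre and floxed Wt1 (3 hearts, replicates 1, 5 and 10), and the other 3 hearts (replicates 2, 3 and 5) were labelled wild type. In the study's methods the latter are embryos without Cre whose Wt1 alleles are both floxed, so the floxed alleles were shared by all hearts, whereas Cre was present only in the mutants. The strain was C57BL/6 x DBA/2 throughout, and each library came from 1 heart. The Tnnt2 driver acts in the myocardium and, by the study's account, in a part of the epicardium, so the deletion was not restricted to one of these layers and did not reach every epicardial cell.

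The epicardium is a mesothelium, a single sheet of epithelial cells of mesodermal origin. As in other simple epithelia, its keratin filaments are built from pairs of a type II keratin (Krt7, Krt8) and a type I keratin (Krt18, Krt19), and a keratin without a partner is usually unstable as a protein. Uroplakins are membrane proteins best known from the bladder lining, where Upk1b, a tetraspanin, carries other uroplakins to the cell surface; Upk3b is the family member typical of mesothelium. Msln encodes mesothelin, a surface protein anchored by a lipid, and Lrrn4 and Gpm6a encode membrane proteins studied mostly in neurons and also used as mesothelial markers. Pericardial and pleural mesothelium also express these genes, and whole hearts do not separate such cells from epicardium.

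Total counts lay between 44244665 (wild type replicate 5) and 56373393 (wild type replicate 3). Of the 17473 genes with enough counts to be tested, edgeR's quasi-likelihood test called 0 at an adjusted p under 0.05 and gave 1002 (5.73%) an unadjusted p under 0.05. DESeq2, with its own filter, called 132 of 19493 genes. Wild type replicate 5 stood apart from the other hearts, with a score of 55.4 on the first principal component against -34.3 to 8.51 in the others. Its deviations also ran with gene length across 11795 genes (Spearman's rho -0.56, against -0.06 to 0.46 in the others). Wt1, the targeted gene, stood at 40.0, 32.9 and 19.97 CPM (counts scaled to library sizes, which were normalized by TMM) in wild type replicates 2, 3 and 5, and at 17.7, 33.3 and 35.7 CPM in mutant replicates 1, 5 and 10. The groups overlapped, with a log2 fold change of -0.10 ± 0.31 (SE; adjusted p = 0.990, edgeR) and a value of 0.13 when wild type replicate 2 was omitted and 0.16 when mutant replicate 1 was. Counts over the whole gene do not separate recombined from intact alleles. Tnnt2, the driver gene, was at 3960 ± 73.9 CPM (SD, n = 3) in wild type and 4277 ± 183 CPM (SD, n = 3) in mutant hearts (log2 fold change 0.11 ± 0.12, SE).

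Krt8 and Krt18, the keratin pair of simple epithelia, are next to each other in the mouse genome. In GRCm38 (GENCODE M21), Krt8 lies at chr15:101996698-102004482 on the minus strand and Krt18 at chr15:102028180-102032027 on the plus strand, so that they are transcribed away from each other over a gap of 23.7 kb with 0 annotated genes between them. Krt7 lies on the same chromosome (chr15:101411043-101430313, plus strand), 566 kb and 42 genes from Krt8. Krt19 belongs to the type I cluster of another chromosome (chr11:100140810-100148665, minus strand). The upstream sequences of Krt8 and Krt18 are shown because these neighbours form one filament but differed in how far their RNA departed from wild type, and those of Upk3b and Lrrn4 because they hold the letters searched for. Upstream sequences were available here for 6 of the 9 genes, and those of Krt19, Upk1b and Msln were not searched. The sequences printed come from RefSeq (GRCm38.p6). Each is the part outside annotated exons of the 250 bases before a start, written 5′ to 3′ on the strand of the gene, and capitals mark GATAAG, the motif of GATA factors, or GGAATG, that of TEAD factors, on either strand, one on the opposite strand reading as its reverse complement.
Krt8 (chr15:102004483-102004592, minus strand): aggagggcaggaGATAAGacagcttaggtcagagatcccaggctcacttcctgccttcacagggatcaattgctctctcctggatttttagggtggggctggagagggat
Krt18 (chr15:102027966-102028179, plus strand): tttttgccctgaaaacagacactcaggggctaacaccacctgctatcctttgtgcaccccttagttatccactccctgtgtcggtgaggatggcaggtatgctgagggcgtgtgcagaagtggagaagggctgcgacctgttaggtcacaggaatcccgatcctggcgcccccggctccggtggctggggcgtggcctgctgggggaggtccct
Upk3b (chr5:136038246-136038495, plus strand): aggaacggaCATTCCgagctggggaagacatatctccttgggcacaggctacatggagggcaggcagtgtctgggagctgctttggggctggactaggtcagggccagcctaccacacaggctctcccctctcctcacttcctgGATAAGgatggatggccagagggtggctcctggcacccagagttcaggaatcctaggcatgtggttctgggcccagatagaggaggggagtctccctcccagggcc
Lrrn4 (chr2:132880892-132881112, minus strand): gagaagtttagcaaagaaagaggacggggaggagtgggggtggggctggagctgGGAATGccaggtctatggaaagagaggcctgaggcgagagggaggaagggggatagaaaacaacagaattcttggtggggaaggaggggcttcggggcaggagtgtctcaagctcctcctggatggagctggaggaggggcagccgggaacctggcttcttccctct

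GATAAG was present upstream of Krt8, 238 bases before its RefSeq start, and of Upk3b, 106 bases before its start, and it was in 6.55% of all 32851 windows of this length. GGAATG was found upstream of Upk3b, of Lrrn4 and in 1 of the 2 windows of Gpm6a, against 12.6% of all windows. None of the 5 motifs searched was found upstream of Krt18, and Krt7 held 4 matches to the Sp1 motif GGGCGG, which was in 32.7% of all windows. The WT1 motifs GTGGGAG (8.25% of all windows) and GTGGGCG (7.02%, shared with EGR factors) had 0 matches in the windows of the 6 genes searched. This says only that these letters are not in the 250 bases. The motifs were searched on both strands. GTGGGCG and GGGCGG can share letters, but no matches overlapped in these windows.

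Among the 4 mesothelial keratins, Krt8 had the largest fold change between the genotypes. Krt8 (ENSMUSG00000049382) stood at 21.5, 21.9 and 12.8 CPM in wild type replicates 2, 3 and 5 and at 35.8, 40.3 and 47.2 CPM in mutant replicates 1, 5 and 10. All 3 mutant hearts lay above all 3 wild type hearts, and the log2 fold change was 1.13 ± 0.21 (SE), a fold of 2.19. Its range with each heart left out in turn was 0.92 to 1.26, given as a description because the gene was chosen on this contrast. Of the 75-base stretches in the Krt8 transcript, 23.5% also occur in transcripts of the pseudogene Krt8-ps or of Gm36026, a gene that overlaps 5.16% of the Krt8 exon bases on the opposite strand. Neither is named among the genes listed for these hearts, and the strand setting of the counting is not given in the sources used here. By the study's methods only uniquely mapped reads were counted. How far such reads were added to or left out of the Krt8 counts was not tested.

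Krt18 (ENSMUSG00000023043), its usual partner, was at 23.9, 20.8 and 16.6 CPM in the wild type hearts and at 24.6, 31.1 and 34.6 CPM in the mutant hearts, in the same order of replicates. These groups did not overlap either, but mutant replicate 1 was close to wild type replicate 2, and the log2 fold change was 0.56 ± 0.17 (SE). Krt7 (ENSMUSG00000023039), the other type II keratin, was measured at 32.2, 27.8 and 17.9 CPM in wild type and at 31.9, 49.5 and 68.9 CPM in mutant hearts. Its groups overlapped because mutant replicate 1 was just below wild type replicate 2, and its log2 fold change was 0.95 ± 0.30 (SE). Krt19 (ENSMUSG00000020911), the most abundant keratin per length, had 42.9, 44.5 and 27.2 CPM in wild type and 30.7, 37.9 and 54.6 CPM in mutant hearts. Mutant replicates 1 and 5 were lower than wild type replicates 2 and 3, and the log2 fold change of 0.10 ± 0.25 (SE) changed sign, to -0.09 when wild type replicate 5 was omitted and to -0.15 when mutant replicate 10 was.

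**Figure D1:**
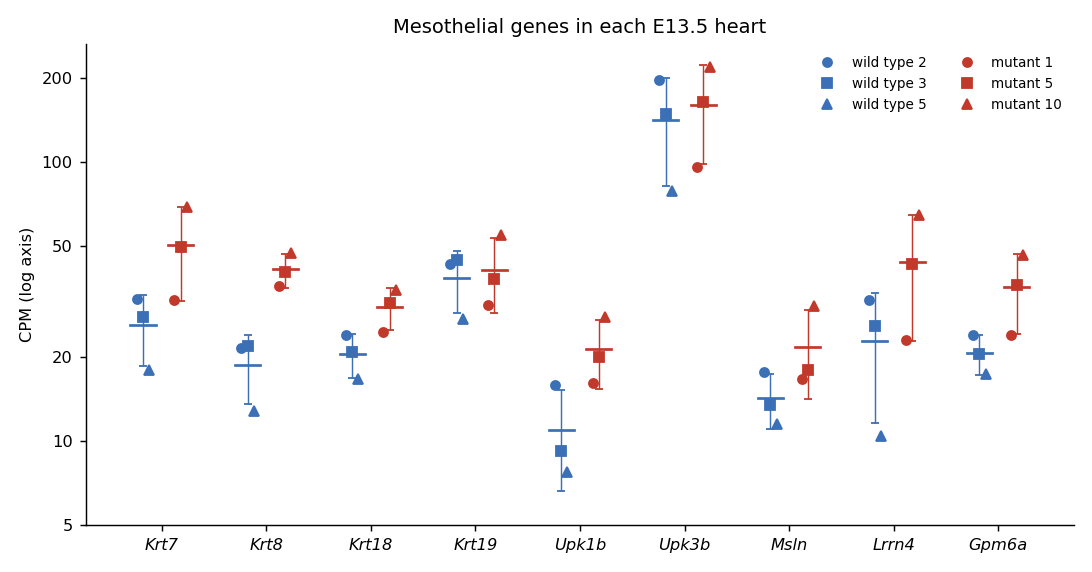
CPM (log axis) of the 9 mesothelial genes in each heart, wild type in blue and mutant in red, with lines for the mean and bars for the SD of 3 hearts. The groups are apart for Krt8, Krt18 and Upk1b and overlap for the other 6 genes, and wild type replicate 5 is the lowest and mutant replicate 10 the highest point of every gene.

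The keratins therefore did not differ by a common factor, and the proportion between the types was compared in each heart. On the FPKM scale, which is per length and allows genes to be added, Krt7 and Krt8 together were 0.520, 0.484 and 0.454 of Krt18 and Krt19 together in wild type replicates 2, 3 and 5. In mutant replicates 1, 5 and 10 this ratio was 0.805, 0.864 and 0.848. The mean ratio was 0.486 ± 0.0330 (SD, n = 3) in wild type and 0.839 ± 0.0306 (SD, n = 3) in mutant hearts, 1.73 times as high, with a gap between the groups several times wider than either spread. The ratio was formed after the values had been seen, and it uses the contrast the genes were chosen with, so no test is given. The ratio varied less among hearts of a genotype than the summed level of either type did. Type II keratin RNA ranged from 17.9 to 32.0 FPKM in wild type and from 40.0 to 64.6 FPKM in mutant hearts, without overlap. Type I keratin RNA ranged from 39.4 to 61.6 FPKM in wild type and from 49.7 to 76.2 FPKM in mutant hearts, with overlap.

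Both pairs contributed to this difference. The ratio of Krt8 to Krt18 was 0.698, 0.817 and 0.596 in the wild type hearts and 1.13, 1.01 and 1.06 in the mutant hearts, so that Krt8 RNA was below Krt18 RNA in each wild type heart and above it in each mutant heart. Of the 75-base stretches, 23.5% in Krt8 but 0% in Krt18 are shared with transcripts of other genes. How far this shifts the level of Krt8 beside that of Krt18 was not tested. The ratio of Krt7 to Krt19 was 0.451, 0.374 and 0.394 in wild type and 0.622, 0.783 and 0.755 in mutant hearts, again without overlap. Since wild type replicate 5 was low in both types, its ratio was near those of the other wild type hearts. On the log2 scale, omitting hearts one at a time kept the difference of the type II to type I ratio within 0.74 to 0.84.

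**Figure D2:**
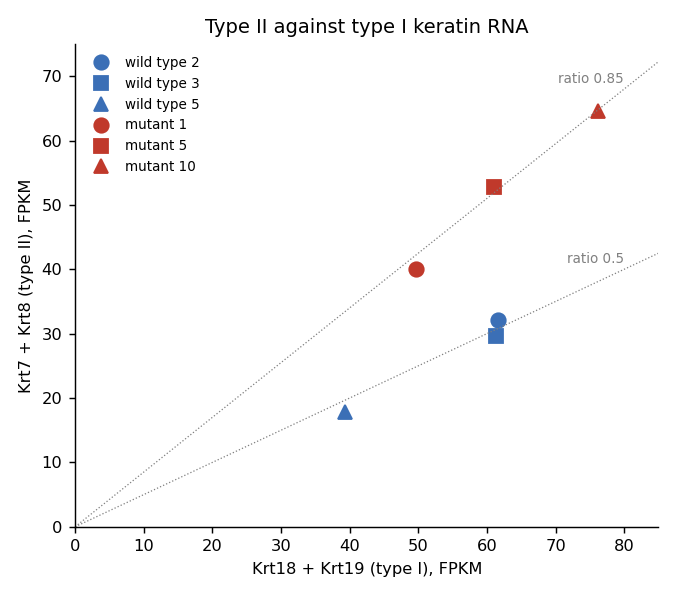
Summed FPKM of the type II keratins Krt7 and Krt8 (vertical axis) against that of the type I keratins Krt18 and Krt19 (horizontal axis) in each heart, with dotted guide lines of constant ratio. The 3 wild type hearts lie at ratios of 0.454 to 0.520 and the 3 mutant hearts at 0.805 to 0.864, although the totals within each genotype differ.

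The uroplakins differed from each other. Upk1b (ENSMUSG00000049436, chr16:38773184-38800328, minus strand) was at 15.8, 9.18 and 7.75 CPM in wild type replicates 2, 3 and 5 and at 16.1, 19.99 and 27.7 CPM in mutant replicates 1, 5 and 10. The groups did not overlap, although mutant replicate 1 exceeded wild type replicate 2 only narrowly, and the log2 fold change was 0.96 ± 0.29 (SE). Upk3b (ENSMUSG00000042985, chr5:136038496-136046487, plus strand), with the highest CPM of the 9 genes, was at 196, 148 and 78.5 CPM in wild type and at 95.8, 164 and 219 CPM in mutant hearts. Mutant replicate 1 was below wild type replicates 2 and 3, and the log2 fold change of 0.18 ± 0.37 (SE) turned to -0.11 when either wild type replicate 5 or mutant replicate 10 was omitted.

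Msln (ENSMUSG00000063011, chr17:25748613-25754378, minus strand) was at 17.7, 13.4 and 11.5 CPM in wild type and at 16.7, 17.95 and 30.5 CPM in mutant hearts. Mutant replicates 1 and 5 were near wild type replicate 2, and without mutant replicate 10 the log2 fold change went from 0.61 ± 0.25 (SE) to 0.29. Lrrn4 (ENSMUSG00000043110, chr2:132868305-132880891, minus strand) was the most variable of the genes, with 31.9, 25.8 and 10.4 CPM in wild type and 23.0, 43.2 and 64.6 CPM in mutant hearts. The groups overlapped, and its log2 fold change of 0.94 ± 0.45 (SE) became 0.54 when mutant replicate 10 was omitted and 0.59 when wild type replicate 5 was. Gpm6a (ENSMUSG00000031517, chr8:54954843-55060871, plus strand) stood at 24.0, 20.5 and 17.3 CPM in wild type and at 23.9, 36.3 and 46.4 CPM in mutant hearts. Mutant replicate 1 was at the level of wild type replicate 2, the other mutant hearts were higher, and the log2 fold change was 0.78 ± 0.23 (SE).

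The same hearts were at the extremes for these genes. Wild type replicate 5 was the lowest of all 6 hearts in 9 of 9 genes, mutant replicate 1 the lowest mutant heart in 9 of 9, and mutant replicate 10 the highest of all 6 in 9 of 9. Over all genes tested, wild type replicate 5 was the lowest heart for 31.1% and mutant replicate 10 the highest for 14.9%. The share with mutant replicate 1 as the lowest mutant heart was not computed, so nothing is read from that count. The summed CPM of the 9 genes was 406, 332 and 200.0 in wild type replicates 2, 3 and 5 and 299, 440.3 and 593 in mutant replicates 1, 5 and 10. In RNA from whole hearts, fewer mesothelial cells and less RNA per mesothelial cell cannot be told apart. The gene-wise biological coefficient of variation was 0.383 for Lrrn4, 0.318 for Upk3b, 0.262 for Krt7 and 0.165 for Krt18, against a trend of 0.154 to 0.156 for genes of their abundance.

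Per length, Upk3b and Krt19 were the most abundant of the genes in both genotypes. In wild type hearts the FPKM was 40.4 ± 17.2 (SD, n = 3) for Upk3b and 39.4 ± 10.2 (SD, n = 3) for Krt19, and these neighbours did not differ beyond their spread. Krt7 (16.0 ± 4.68 FPKM), Krt18 (14.8 ± 2.78 FPKM) and Krt8 (10.5 ± 3.01 FPKM) followed, all well below Krt19, and each range overlapped that of the next. Msln, Upk1b, Gpm6a and Lrrn4 came last with means between 6.19 and 6.79 FPKM and overlapping ranges. In mutant hearts the order began in the same way, with Upk3b at 44.4 ± 15.7, Krt19 at 41.1 ± 10.6 and Krt7 at 29.99 ± 10.001 FPKM (SD, n = 3), and the ranges of Krt19 and Krt7 now overlapped. Krt8 (22.5 ± 2.28 FPKM) was placed before Krt18 (21.2 ± 2.93 FPKM) there, and it was higher than Krt18 in all 3 mutant hearts. The limit on Krt8 counts from shared stretches applies to this order too. Msln was last, at 10.1 ± 3.11 FPKM, within the range of Gpm6a.

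All 9 genes passed the filter on low counts, and their fold changes were all above 0, whereas 49.8% of all genes tested had a fold change above 0. The median log2 fold change was 0.78, beside -0.0010 over all genes tested, and it ranged from 0.54 without mutant replicate 10 to 1.01 without mutant replicate 1. Without wild type replicate 5, which stood apart, the median was 0.59. The log2 fold change was then 0.74 for Krt7, 0.92 for Krt8, 0.43 for Krt18, 0.77 for Upk1b, 0.48 for Msln, 0.59 for Lrrn4 and 0.67 for Gpm6a, all lower than with that heart, and 7 of 9 genes were above 0, as they were without mutant replicate 10. The groups did not overlap for 3 of 9 genes, where 6.61% of all genes tested had all mutant hearts above all wild type hearts. An unadjusted p under 0.05 was obtained for 6 of 9, beside a background of 3.14% in that direction. At an adjusted p under 0.05, edgeR called 0 of 9 (background 0%), DESeq2 called 1 of 9, Krt8 (background 0.395%), and edgeR without wild type replicate 5 called 1 of 9, also Krt8 (background 0.135%). With a correction for gene length it called 0 of 9 (background 0.0401%). Since the genes were chosen with these fold changes known, nothing is read from these shares.

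**Figure D3:**
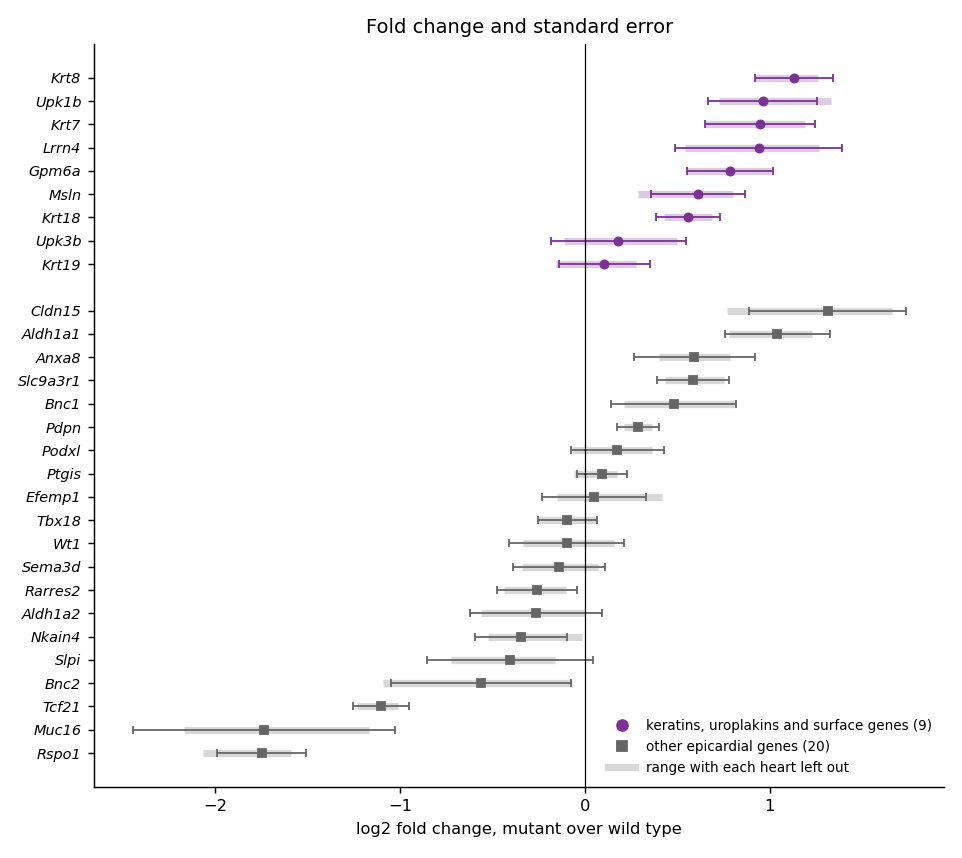
Log2 fold change of mutant over wild type hearts (horizontal axis) with its standard error (bars) and the range obtained with each heart left out (pale bands), for the 9 mesothelial genes and 20 other epicardial genes. The former have values from 0.10 (Krt19) to 1.13 (Krt8), and the latter lie on both sides of 0, from -1.75 (Rspo1) to 1.31 (Cldn15).

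The other epicardial genes did not differ in one direction. Of the 20 genes listed, all tested, 9 were higher and 11 lower, with a median log2 fold change of -0.10 (0.11 without mutant replicate 1, 0.08 without wild type replicate 2), and 0 passed edgeR's test (4 had an unadjusted p under 0.05 with a higher and 3 with a lower value, beside backgrounds of 3.14% and 2.59%). Tcf21, a transcription factor of epicardial cells and their fibroblast descendants, was at 52.8, 43.4 and 57.6 CPM in wild type and at 28.0, 22.8 and 20.8 CPM in mutant hearts (log2 fold change -1.10 ± 0.15, SE; adjusted p = 0.113, edgeR). Rspo1, a secreted enhancer of Wnt signalling, had 9.91, 9.65 and 11.5 CPM in wild type and 2.597, 4.25 and 2.36 CPM in mutant hearts (log2 fold change -1.75 ± 0.24, SE; adjusted p = 0.113, edgeR). In both, every mutant heart was below every wild type heart, a separation seen in that direction for 4.59% of all genes tested. Without wild type replicate 5, edgeR gave Tcf21 an adjusted p of 0.0349 and Rspo1 one of 0.0423, and with all hearts DESeq2 called both as lower (background 0.282%). With the correction for gene length, Tcf21 was the 1 gene of the list called (adjusted p = 0.0424, edgeR; background 0.0343%). Aldh1a1, which makes retinoic acid, was the gene of this list that DESeq2 called as higher (adjusted p = 0.0404), with 3.73 to 7.80 CPM in wild type and 9.96 to 15.6 CPM in mutant hearts. It is named here because the call was seen.

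The levels of the 9 genes were also set against those of epicardial genes within each heart. Relative to Wt1, FPKM ratios of 7 of 9 genes were higher in all mutant than in all wild type hearts, and those of Krt19 and Msln overlapped. Of all genes tested, 1.98% had such a separation relative to Wt1. Krt7, for example, was 0.956, 1.001 and 1.06 times Wt1 in wild type replicates 2, 3 and 5 and 2.13, 1.76 and 2.29 times Wt1 in mutant replicates 1, 5 and 10. The ratio of Krt8 to Wt1 was 0.579, 0.717 and 0.688 in wild type and 2.18, 1.30 and 1.42 in mutant hearts. Mutant replicate 1, the lowest mutant heart in each of the 9 genes, thus had the highest ratio of Krt8 to Wt1. Upk3b, whose CPM overlapped, was 2.16 to 2.70 times Wt1 in wild type and 2.71 to 3.38 times Wt1 in mutant hearts, a narrow gap. Wt1 is the floxed gene, so Tbx18 and Aldh1a2, a transcription factor and a retinoic acid enzyme of the epicardium, were used as well. By the study's account Aldh1a2 falls strongly when epicardial Wt1 is lost, although it found no change in these hearts. Aldh1a2 is thus not independent of Wt1. It was at 60.4, 51.5 and 24.8 CPM in wild type and at 22.8, 42.8 and 48.2 CPM in mutant hearts. Like Wt1, it was lowest in mutant replicate 1. Tbx18 was at 47.7 to 75.3 CPM in wild type and 55.5 to 60.2 CPM in mutant hearts. The groups were apart for 7 of 9 genes relative to Aldh1a2 (background 2.03%), for 6 of 9 relative to Tbx18 (background 8.44%), and for 7 of 9 relative to the geometric mean of the other epicardial genes (background 10.3%), a denominator added after the data were seen. As above, nothing is read from these counts. Krt19 overlapped with each denominator, with means of 2.497 ± 0.326 (SD, n = 3) in wild type and 2.902 ± 0.600 (SD, n = 3) in mutant hearts for its ratio to Wt1.

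**Figure D4:**
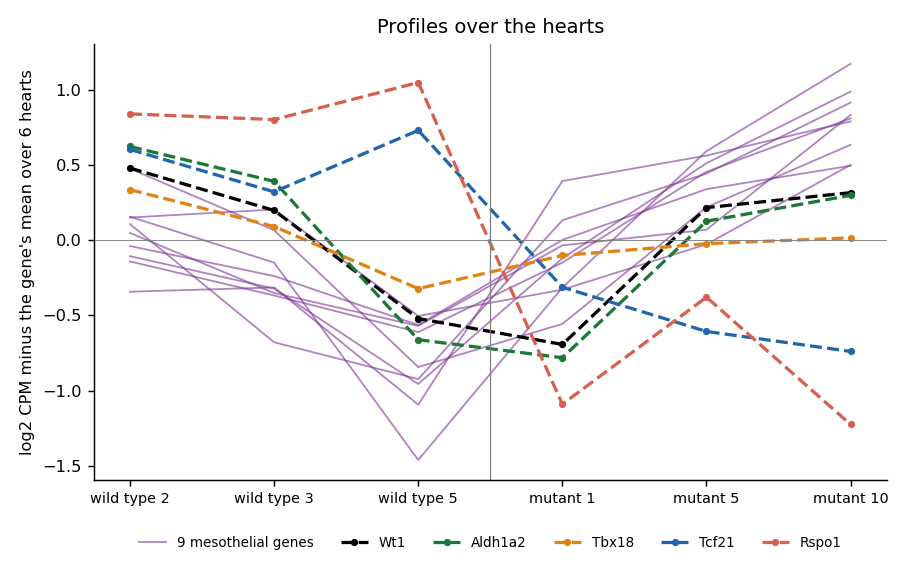
Log2 CPM of each gene minus its own mean over the 6 hearts, for the 9 mesothelial genes (thin lines) and for Wt1, Aldh1a2, Tbx18, Tcf21 and Rspo1 (dashed). The lines join hearts only to guide the eye. The mesothelial genes and Wt1, Aldh1a2 and Tbx18 are all low in wild type replicate 5, whereas Tcf21 and Rspo1 are high there and low in the 3 mutant hearts.

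Other keratins and uroplakins were scarce. Of 47 further keratin genes listed, 11 had enough counts to be tested and 16 had 0 counts in every heart, and the summed level of the 47 was 30.2 to 38.6 CPM in wild type and 33.8 to 41.1 CPM in mutant hearts. The 11 had a median log2 fold change of -0.19 (4 higher, 7 lower, 0 past edgeR's test), and one of -0.38 to -0.02 with hearts omitted one at a time (lowest without mutant replicate 1, highest without wild type replicate 5). Krt17, a type I keratin of basal and stressed epithelia, was at 2.40, 2.30 and 1.66 CPM in wild type and at 3.19, 4.998 and 6.32 CPM in mutant hearts, without overlap (log2 fold change 1.19 ± 0.29, SE; adjusted p = 0.436, edgeR; 0.0171, DESeq2). Krt14, a type I keratin of basal cells, had 1.48 to 2.99 CPM in wild type and 2.37 to 4.43 CPM in mutant hearts (log2 fold change 0.82 ± 0.36, SE; adjusted p = 0.866, edgeR). The 4 other uroplakin genes summed to 0.174 to 0.673 CPM in any heart. Only Upk1a, the tetraspanin closest to Upk1b, could be tested, with 9 to 17 counts in wild type and 16 to 31 counts in mutant hearts (log2 fold change 0.91 ± 0.46, SE; adjusted p = 0.922, edgeR).

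Proteins that anchor or accompany keratin filaments were measured in 14 of the 15 genes listed, all tested, and Eppk1 was not analysed here. Their median log2 fold change was 0.19, with 13 higher and 1 lower, but without wild type replicate 5 it was 0.0048, with 7 higher and 7 lower, and it was 0.37 without wild type replicate 2. With all hearts 0 passed edgeR's test (2 had an unadjusted p under 0.05 with a higher value, beside a background of 3.14%). Pkp3, a desmosomal plaque protein of epithelia, had 2, 11 and 12 counts in wild type and 33, 50 and 20 counts in mutant hearts (log2 fold change 2.01 ± 0.65, SE; adjusted p = 0.696, edgeR). Ppl, a plakin that links keratin filaments to desmosomes, stood at 5.90, 4.49 and 2.07 CPM in wild type and at 4.69, 8.74 and 11.96 CPM in mutant hearts, with the lowest and highest hearts the same as for the 9 genes (log2 fold change 1.02 ± 0.42, SE; adjusted p = 0.847, edgeR). Relatives of Gpm6a, Lrrn4, Msln and Upk1b were 7 tested of 9 listed, with a median log2 fold change of -0.26 (1 higher, 6 lower, 0 past edgeR's test; -0.44 to -0.27 with hearts omitted one at a time, lowest without wild type replicate 2). Lrrn3, of the Lrrn4 family, was at 9.36 to 10.9 CPM in wild type and 5.82 to 8.09 CPM in mutant hearts (log2 fold change -0.60 ± 0.17, SE; adjusted p = 0.585, edgeR). Tspan8, a tetraspanin like Upk1b, was at 1.79 to 2.12 CPM in wild type and 0.750 to 1.37 CPM in mutant hearts (log2 fold change -0.95 ± 0.29, SE; adjusted p = 0.667, edgeR).

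The general epithelial genes held Cldn3, 1 of 6 genes that shared the smallest adjusted p of all. This tight junction claudin of epithelia was at 0.906, 1.13 and 1.70 CPM in wild type and at 6.18, 11.2 and 15.7 CPM in mutant hearts, far apart (log2 fold change 3.15 ± 0.38, SE; adjusted p = 0.0991 in edgeR, 2.81e-15 in DESeq2 and 0.0219 in edgeR without wild type replicate 5). Its order within each genotype differed from that of the 9 genes among the wild type hearts, where replicate 5 was the highest. Lsr, a receptor at tricellular junctions, had 3.04 to 4.24 CPM in wild type and 4.89 to 5.96 CPM in mutant hearts (log2 fold change 0.47 ± 0.20, SE; adjusted p = 0.847, edgeR). Of the 23 epithelial genes listed, 20 were tested, with a median log2 fold change of 0.13 (14 higher, 6 lower, 0 past edgeR's test). The median turned to -0.12 when mutant replicate 5 was omitted and to -0.09 when wild type replicate 2 was, and it was 0.48 without wild type replicate 5 (16 higher, 4 lower), 0.34 without mutant replicate 10 and 0.33 without mutant replicate 1. Their summed level was 100.3 to 126 CPM in wild type and 103 to 128 CPM in mutant hearts.

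Since keratins are shared by all simple epithelia, genes of adjacent tissues were read in the same hearts. Epcam, a surface protein of endodermal epithelia that mesothelium lacks, took 10, 37 and 267 counts in the wild type hearts and 35, 264 and 29 counts in the mutant hearts, in the order used above. Nkx2-1, a transcription factor of lung and thyroid, had 0, 0 and 64 counts in wild type and 8, 65 and 0 counts in mutant hearts. Cdh1, or E-cadherin, was at 3, 107 and 63 counts in wild type and 23, 147 and 15 counts in mutant hearts. Epcam and Nkx2-1 were highest in wild type replicate 5, the heart with the least RNA of all 9 mesothelial genes, and in mutant replicate 5. All 3 were low in mutant replicate 10, the heart with the most RNA of all 9. The 12 foregut genes summed to 23.4 to 37.3 CPM in wild type and 27.8 to 39.2 CPM in mutant hearts. Most of this sum was Irx1, at 15.9 to 19.96 CPM in wild type and 21.2 to 24.6 CPM in mutant hearts. Foxa2, another of the 12, had 0, 14 and 130 counts in wild type and 8, 103 and 1 counts in mutant hearts. The sum therefore does not show how unevenly such genes were spread over the hearts. Of the 6 foregut genes that could be tested, 2 were higher and 4 lower, with a median log2 fold change of -0.25 and 0 past edgeR's test. The median was 0.62 (4 higher, 2 lower) when wild type replicate 5 was omitted and 0.13 when mutant replicate 10 was. It was -1.12 on leaving out mutant replicate 5, -0.38 and -0.39 on leaving out wild type replicates 2 and 3, and -0.02 on leaving out mutant replicate 1. Those with the smallest p were Irx1, a transcription factor also expressed in the heart (log2 fold change 0.30 ± 0.13, SE; adjusted p = 0.862, edgeR), and Tg, or thyroglobulin (-0.27 ± 0.20, SE; adjusted p = 0.981, edgeR).

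Liver genes were high in a single heart. The 12 hepatocyte genes summed to 835 CPM in wild type replicate 3, to 3.82 and 19.7 CPM in wild type replicates 2 and 5, and to between 3.70 and 24.7 CPM in the mutant hearts. Alb, or albumin, had 17429 counts in wild type replicate 3 and 0 to 289 counts in the other hearts (log2 fold change -8.12 ± 2.47, SE; adjusted p = 0.659, edgeR). Apoa2, an apolipoprotein, had 978 counts there and 23 to 40 counts elsewhere, and its log2 fold change of -3.24 became 0.01 without that heart. The 8 hepatocyte genes tested had a median log2 fold change of -3.75, 0 past edgeR's test, and one of 0.19 without wild type replicate 3. Without this heart the log2 fold change of Krt8 was 1.26, the upper end of its range.

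**Figure D5:**
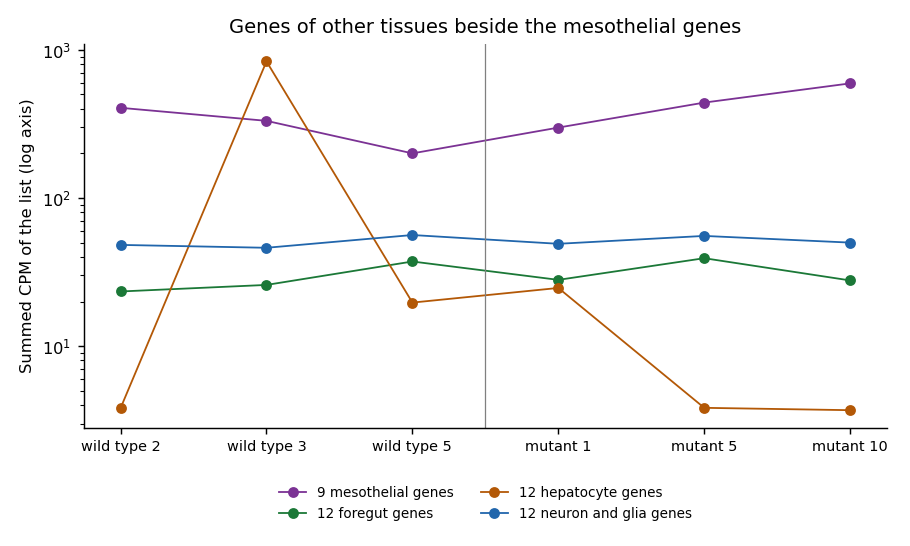
Summed CPM (log axis) in each heart of the 9 mesothelial genes and of 12 genes each of foregut, hepatocytes, and neurons and glia. The hepatocyte sum is 835 CPM in wild type replicate 3 and at most 24.7 CPM elsewhere. The foregut sum, most of it Irx1, lies between 23.4 and 39.2 CPM. The mesothelial sum is lowest in wild type replicate 5 (200.0 CPM) and highest in mutant replicate 10 (593 CPM).

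Gpm6a and Lrrn4 are also neuronal genes, and 11 of 12 genes of neurons and glia were tested, with a median log2 fold change of -0.35 (4 higher, 7 lower, 0 past edgeR's test). The median was 0.10 (6 higher, 5 lower) when wild type replicate 5 was omitted, -0.23 when mutant replicate 10 was and -0.59 when wild type replicate 2 was. Their summed level was 46.1 to 56.2 CPM in wild type and 49.1 to 55.5 CPM in mutant hearts. Sox10, a factor of neural crest and glia, had 53 to 96 counts in wild type and 55 to 68 counts in mutant hearts. Prph, an intermediate filament of peripheral neurons, was at 0.621, 0.956 and 0.886 CPM in wild type and 1.501, 2.44 and 2.80 CPM in mutant hearts (log2 fold change 1.45 ± 0.33, SE; adjusted p = 0.385 in edgeR and 0.0123 in DESeq2). Stmn2, a neuronal tubulin-binding protein, was at 2.97 to 8.29 CPM in wild type and 2.40 to 3.68 CPM in mutant hearts (log2 fold change -0.76 ± 0.37, SE; adjusted p = 0.915, edgeR). All 9 cardiomyocyte genes listed were tested, with a median log2 fold change of 0.11 (6 higher, 3 lower, 0 past edgeR's test), which turned to -0.10 without wild type replicate 5 (2 higher, 7 lower). Myl7, the atrial light chain, had a log2 fold change of -0.48 ± 0.20 (SE; adjusted p = 0.860, edgeR) and Myl2, the ventricular light chain, one of 0.21 ± 0.14 (SE; adjusted p = 0.968, edgeR). The part of these other tissues in the mesothelial values was not tested.

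The genes with a profile over the hearts most like the mean of the 9 were sought among 14156 genes, by the root mean square of the differences in centred log2 CPM over the 6 hearts. The closest was Wnt9a, a Wnt ligand, at a root mean square of 0.0631, with 8.11, 7.39 and 4.45 CPM in wild type replicates 2, 3 and 5 and 7.52, 10.5 and 15.4 CPM in mutant replicates 1, 5 and 10. Ccdc88b (0.0988), Vwa7 (0.129), Itga7, a laminin-binding integrin subunit (0.129), and Sult4a1 (0.148) followed, where the median over all genes compared was 0.517. Bnc1, of the list of other epicardial genes, came directly after these 5 (0.156). Of the 9 genes themselves, Krt7 (0.132) and Gpm6a (0.136) were nearest to their mean, and Lrrn4 (0.331) was farthest. Wnt9a was among the 5 closest genes whichever heart was left out, whereas without mutant replicate 10 it was the only 1 of the 5 that remained.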

How the data were processed

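Whole hearts (3 wild type, 3 mutant) were compared. Trimmed reads were aligned to the mouse genome by STAR, and the authors used featureCounts for those mapped uniquely, as the study's methods state, whereas the submitters' processing notes name HTSeq. The authors deposited these counts without normalization, and FPKM values, each a count divided by 1 fixed gene length and the total of the heart. The tables deposited without gene annotation and a table of group means were not used. Labels do not say whether embryos shared a litter, and p-values measure the spread between these hearts.

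The counts were tested with edgeR 4.0.16 in R 4.3.3 (quasi-likelihood test, two-sided, TMM, filterByExpr at its defaults, minimum 10 and total 15), with Benjamini-Hochberg adjustment over all 17473 genes tested and a threshold of 0.05. CPM are counts scaled to TMM-normalized library sizes. SD is over 3 hearts, and SE is that of the fitted log2 fold change. The groups share 1 replicate number and were not paired. The settings tried were DESeq2 1.42.0, limma 3.58.1 (voom, and trend on log2(FPKM + 1) or log2(FPKM + 0.1)), other size factors and filters, an adjusted p under 0.1, a gene length correction (local regression, span 0.5) and each heart left out. The fits were tested on simulated data.

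Members and lists were chosen with earlier results of these data known. Genes named are the 9 members, Wt1, Tnnt2, the 2 genes of each list with the smallest p where none passed, markers of other cell types (1 of them is not reported here), and the 5 closest profiles, compared at a mean of at least 1 CPM; Aldh1a1 and Cldn15 were named after their values were seen. Positions are from GENCODE M21 (46488 of 46983 genes matched). Depth allows counting error well below the spread between hearts for members, although without molecular identifiers reads may repeat a molecule.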

Additional observations from a re-analysis of the deposited data

How the results depend on the processing

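With 3 hearts in each group, 1 heart can decide a value. The number of genes called was 0 with all hearts; it was 132 with DESeq2, 34 without a filter on low counts, 13 with the gene length correction, 6 at an adjusted p under 0.1, and 0 to 44 with each heart left out (44 without wild type replicate 5). With the length correction and without wild type replicate 5 together, chosen after seeing the data, it was 54. Of the 9 mesothelial genes, 1 was called with DESeq2 and 1 without wild type replicate 5, Krt8 each time (backgrounds 0.395% and 0.135%). Also, 1 was called with no filter (34 genes called in all) and 1 with the length correction without that heart (54 in all). Over the hearts left out the number was 0 to 1. Of the other epicardial genes, DESeq2 called 3, the fit with no filter 2, the length correction 1, and the same without wild type replicate 5 called 2 (0 to 2 over the hearts left out). DESeq2 called 1 other keratin and 1 gene of neurons and glia. Of the epithelial genes, 1 was called by DESeq2, with no filter, with the length correction with or without wild type replicate 5, and at an adjusted p under 0.1 (0 to 1 over the hearts left out). The numbers of all genes called, given first, are the background of the counts for each list, and nothing is read from those counts. The cause of the differences between settings was not tested.

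With each heart left out, the log2 fold change ranged from -0.15 to 0.28 for Krt19 and from -0.11 to 0.50 for Upk3b, both negative without wild type replicate 5 or mutant replicate 10, and with the length correction without wild type replicate 5 it was -0.12 and -0.066. It ranged from -0.33 to 0.16 for Wt1, positive without wild type replicate 2 or mutant replicate 1, and from -3.78 to 0.014 for Apoa2, positive without wild type replicate 3. The median log2 of mutant over wild type of the ratios to Tbx18 was 0.65 to 1.05, and that of the ratios to the geometric mean of the epicardial genes 0.67 to 1.01, over the hearts left out, and 1 to 4 of the 5 closest profiles were shared. Over all results and settings, 231 summary values stayed close to those reported and 31 moved. Of the single-gene values, 469 were counted as unchanged, 17 came past the threshold in the same direction and 9 changed sign. For genes outside the 9, unchanged meant the same direction and side of the threshold. For the 9 mesothelial genes it meant the same direction and within the SD between hearts, on either side of the threshold. Krt8 was thus counted as unchanged also where it was called. No paired analysis was possible because the groups share 1 replicate number.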
